A study of Mus musculus with 12 samples.

Results

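The genes described here are 9, chosen by their symbols from the 31641 genes of the deposited count table. Fgf5, Otx2, Pou3f1, Zic2, Zic5, Sall2, Sox3 and Cdh2 are markers of the formative and primed states of pluripotency. Utf1, a gene of pluripotent cells, was set beside these markers, and all 9 are called formative and primed genes below. They were read in 12 RNA-seq libraries of C57BL/6 mouse embryonic stem cells, which are pluripotent and were derived from blastocysts. The wild type is represented by 2 lines (WT-1, WT-2) and the genotype Tin2 S341X by another 2 (Mut-1, Mut-2). Each line has 3 libraries, technical replicates in the words of the design text. Tinf2 (Tin2) encodes TIN2, which is part of shelterin, the protein cap of telomeres, and the series title speaks of differentiation defects under TIN2 deficiency. All 4 lines were kept with serum and LIF on feeder layers of mouse embryonic fibroblasts. RNA was isolated from the whole culture, and each library may therefore hold feeder transcripts. Nothing in the labels says how the lines of a genotype are related, and 2 lines per genotype are a small sample of each.

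Naive embryonic stem cells correspond to the epiblast of the blastocyst and are held by LIF and by factors such as Klf4, Esrrb and Tfcp2l1. On leaving that state, cells pass through a formative phase and then a primed phase, in which FGF and Otx2 act, naive factors are lost, and competence for the germ layers is gained. Cultures in serum and LIF are known to hold a mixture of cells along this path. Because the RNA is from bulk cultures, fewer cells of a type and less RNA per cell cannot be told apart.

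Promoter sequences come from RefSeq (GRCm38.p6), and the start sites used here are 9, from 5 of the 9 genes: Fgf5, Otx2, Sall2, Utf1 and Zic5. No start site of Pou3f1, Zic2, Sox3 or Cdh2 was used, so the motif counts leave those genes out. Each window runs from 250 bases before to 50 bases after a start. Shown is the window of Utf1, which had the smallest p of the 9 genes in the genotype comparison. Also shown is that of the 1 of 4 Otx2 starts that held the homeobox motif of the OTX family.
Utf1 (chr7:139943606-139943905, plus strand): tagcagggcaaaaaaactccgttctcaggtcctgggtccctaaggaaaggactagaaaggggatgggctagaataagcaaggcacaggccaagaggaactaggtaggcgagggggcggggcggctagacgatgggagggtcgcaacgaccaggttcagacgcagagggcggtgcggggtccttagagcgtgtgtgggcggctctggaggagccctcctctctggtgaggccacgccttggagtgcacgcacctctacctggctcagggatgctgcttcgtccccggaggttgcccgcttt
Otx2 (chr14:48665060-48665359, minus strand): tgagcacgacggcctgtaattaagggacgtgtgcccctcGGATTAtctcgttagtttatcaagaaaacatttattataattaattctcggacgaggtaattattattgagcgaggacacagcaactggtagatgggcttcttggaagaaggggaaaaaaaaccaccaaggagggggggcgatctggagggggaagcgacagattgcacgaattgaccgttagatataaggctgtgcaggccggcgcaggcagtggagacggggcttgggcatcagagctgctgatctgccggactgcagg
Capitals in the Otx2 window mark GGATTA, the reverse complement of the motif TAATCC, at position 40 from the 5′ end of the window. TAATCC was searched on both strands and was found in 7.06% of 32851 windows of the same length, and in 1 of the 9 windows of these genes. The octamer ATGCAAAT, the motif of POU factors, was in 1.74% of all windows and in 0 of the 9. The GC content of the 9 windows ran from 30.3% (1 of 2 Sall2 starts) to 68.3% (Fgf5), against a median of 52.7% over all windows. It was 62.0% in the Utf1 window and 51.0% in the Otx2 window shown. A match describes letters and not a bound site.

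Library totals ran from 14766477 to 17891894 counts. Levels are given as CPM, which are counts scaled to the depth of each library, after TMM normalization. Tinf2, the altered gene, ran from 57.4 to 69.5 CPM in the wild-type libraries (69.5, 65.2, 57.4 for WT-1 and 63.7, 58.8, 60.5 for WT-2). The mutant libraries ran from 19.8 to 29.7 CPM (29.7, 25.2, 20.1 for Mut-1 and 29.7, 27.3, 19.8 for Mut-2), and the genotypes did not overlap. Counts on 30 fibroblast genes made up 0.651% to 0.922% of the wild-type libraries and 0.718% to 1.71% of the mutant libraries. The 3 highest shares were in Mut-1 replicate 1 (1.71%), Mut-2 replicate 2 (1.60%) and Mut-2 replicate 1 (1.47%), which are called the feeder-rich libraries. Over line totals the share was 0.813% ± 0.00508 in wild type and 1.21% ± 0.172 in mutant lines (SD, n = 2), and an exact permutation test, two-sided, gave p = 0.333, which is as small as 2 lines against 2 can give. Genes of chromosome 14 stood apart as a group. Of the 391 that averaged 5 CPM or more, 380 were higher in the mutant lines. Their median log2 fold change was 0.36, against -0.04 for 10365 genes of the other autosomes. Otx2, Zic2, Zic5 and Sall2 are on this chromosome, and so is Tinf2 itself, at 55674689 to 55681820 (GRCm38).

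Core and naive genes were present in each library, at levels that differed widely between genes. The 20 genes of that list summed to between 4522 and 6363 CPM in the wild-type libraries and to between 5710 and 7396 CPM in the mutant libraries. Nanog, a core pluripotency factor, ran from 533 to 1006 CPM over the 12 libraries, and the naive factor Esrrb from 752 to 975 CPM. Dppa3, of the same list, ran from 1.37 to 7.11 CPM. Each of the 9 formative and primed genes was detected in each library, at counts between 1 and 3488, and all 9 passed the filter on low counts. Per kilobase of exon, Utf1 was highest, at a mean of 122 CPM per kb over the 12 libraries (range 69.5 to 188). Zic2 followed at 19.2 CPM per kb and Zic5 at 6.53, and the 2 stood in this order in 12 of 12 libraries although their ranges overlapped. Cdh2 (2.33 CPM per kb), Sall2 (1.96), Otx2 (1.73), Pou3f1 (1.58) and Sox3 (1.45) formed a group whose neighbours overlapped in range. Fgf5 was lowest, at 0.211 CPM per kb, and its range did not reach that of Sox3. The plot of the 9 genes by library shows the CPM values behind the rest of the account.

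**Figure D1:**
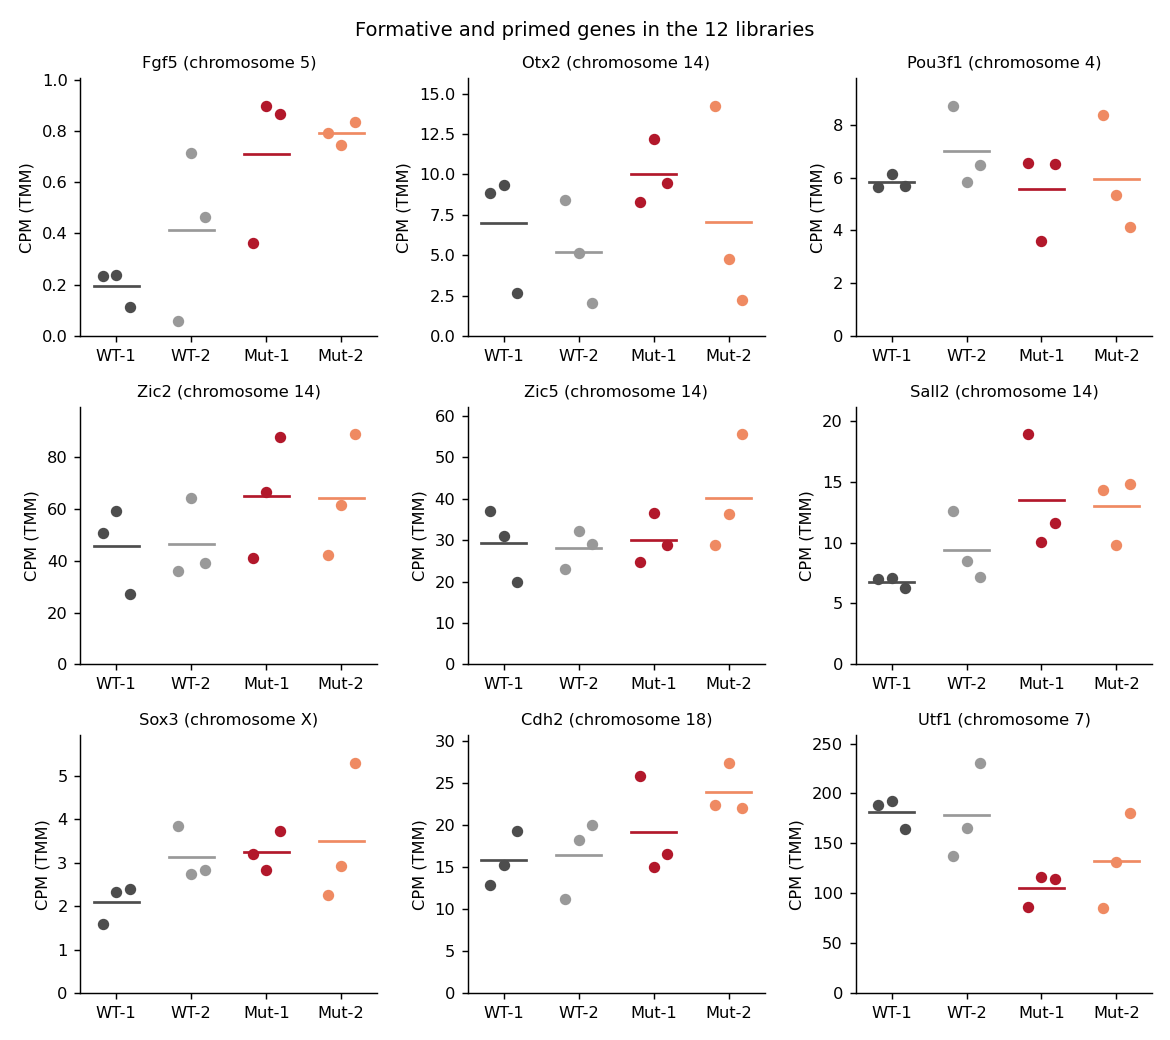
CPM after TMM scaling (vertical axes, linear, from 0) of the 9 genes in each of the 12 libraries; points are the libraries of a line, offset by replicate number, and bars are the mean of the 3 libraries. Utf1 lies lower in 5 of 6 mutant libraries than in any wild-type library, and the libraries of the genotypes overlap for all 9 genes.

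None of the 9 genes passed the test between genotypes. The lines' summed counts were compared with the quasi-likelihood test of edgeR at a Benjamini-Hochberg adjusted p under 0.05 over 18749 genes, and 0 genes passed (0% of those tested). An unadjusted p under 0.05 was reached by 2447 genes, while DESeq2 on the same totals called 359 and limma-voom on the 12 libraries 212. That limma-voom fit estimated a correlation of -0.00402 between libraries of a line, which was set to 0. Libraries of a line thus counted as independent in it. At an unadjusted p under 0.05, Fgf5, Zic2, Sall2 and Cdh2 were higher and Utf1 was lower in the mutant lines. That is 4 and 1 of the 9, against 9.17% of all genes higher and 3.88% lower (13.1% in either direction). The 9 genes were chosen with earlier results of these data known, so these counts are not independent evidence. Zic2 and Sall2 are on chromosome 14, where 49.7% of the genes tested were higher at this p. The 9 log2 fold changes ran from -0.62 to 1.30 with a median of 0.42, and 7 were above 0; over all genes the median was -0.00. Of the genes that averaged 2 CPM or more, 1.45% had all 6 mutant libraries above all 6 wild-type libraries and 0.902% had them below. None of the 8 formative and primed genes at that level was among them.

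Fgf5 encodes a growth factor that is switched on as cells leave the naive state and is the usual marker of the post-implantation epiblast. It lies on chromosome 5 at 98254184 to 98277030 (GRCm38). Replicates 1, 2 and 3 of WT-1 had 0.235, 0.238 and 0.112 CPM, and those of WT-2 had 0.0601, 0.714 and 0.463 CPM. Those of Mut-1 had 0.362, 0.897 and 0.868 CPM, and those of Mut-2 had 0.791, 0.747 and 0.837 CPM. Thus 5 of 6 mutant libraries were above the highest wild-type library, the exception being Mut-1 replicate 1. The values rest on few reads: 10 counts in WT-1 (exact Poisson 95% interval 4.80 to 18.4), 20 in WT-2 (12.2 to 30.9), 33 in Mut-1 (22.7 to 46.3) and 38 in Mut-2 (26.9 to 52.2). These intervals cover counting error only, and that of WT-2 overlaps those of WT-1, Mut-1 and Mut-2. The line means were 0.304 ± 0.153 CPM in wild type and 0.739 ± 0.0572 CPM in mutant lines (SD, n = 2). The log2 fold change was 1.30 (SE 0.43; edgeR adjusted p = 0.282).

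Among the transcription factors, Otx2 is a homeobox factor that works with Oct4 at enhancers of the formative state, and its gene lies on chromosome 14 at 48657677 to 48673819. In order of replicate, WT-1 had 8.88, 9.34 and 2.68 CPM and WT-2 had 8.41, 5.11 and 2.05 CPM. Mut-1 had 8.32, 12.2 and 9.49 CPM and Mut-2 had 14.2, 4.79 and 2.23 CPM. Replicate 3 was the lowest library in 3 of the 4 lines, and the genotypes overlapped over most of their range. The line means were 6.15 ± 1.20 and 8.65 ± 1.77 CPM (SD, n = 2), a log2 fold change of 0.51 (SE 0.22; edgeR adjusted p = 0.389). Without Mut-2 replicate 1 it was 0.15. An antisense gene, Otx2os1, overlaps Otx2 and had 0 to 16 counts per library; without a stated strand setting the reads of both cannot be told apart.

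Libraries of a line differed more in Otx2 than in almost any other gene. The ratio of the highest to the lowest of the 3 libraries was 3.48 for WT-1, 4.11 for WT-2, 1.47 for Mut-1 and 6.38 for Mut-2. The median of the 4 ratios, 3.79, was above that of 99.6% of the 13191 genes that averaged 2 CPM or more, whose median was 1.32. For Zic2 the ratios ran from 1.79 to 2.18, with a median of 2.12 that was above 95.6% of genes. The other 6 genes at this level had medians between 1.46 and 1.67. The cause of this spread was not tested.

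**Figure D2:**
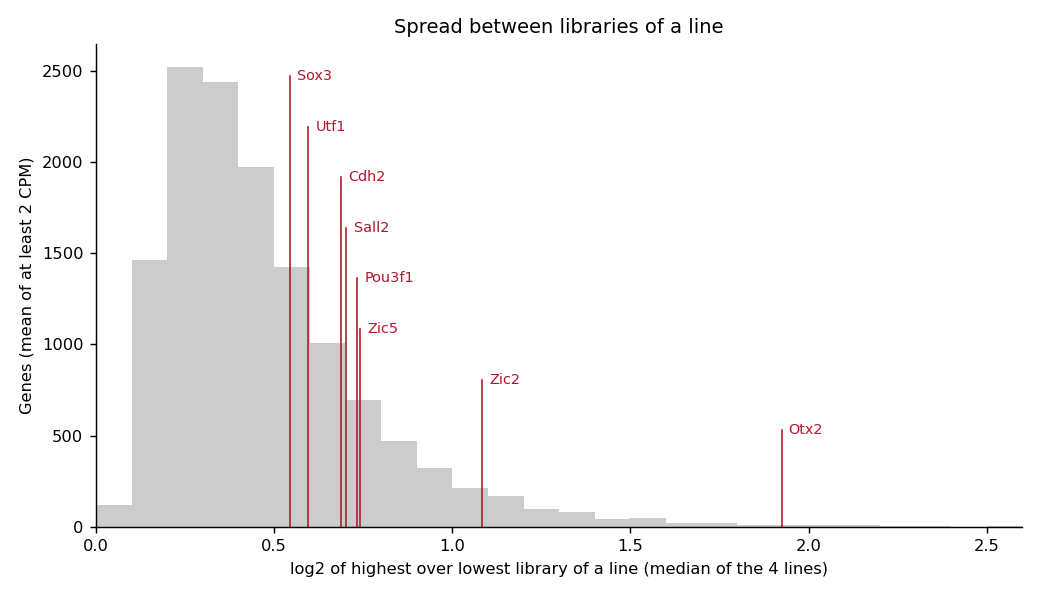
Histogram of the log2 ratio of the highest to the lowest library of a line (horizontal axis, median of the 4 lines) over the 13191 genes that averaged 2 CPM or more (vertical axis, number of genes); red lines mark 8 of the 9 genes, at heights set only for legibility. Otx2, at a ratio of 3.79, lies in the far right tail, while Sox3 and Utf1 lie near the bulk. Fgf5 is left out because its mean is below 2 CPM.

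Zic2 and Zic5 encode zinc finger factors known from the epiblast and the neural plate, and Zic2 is known to bind enhancers in embryonic stem cells. They lie head to head on chromosome 14, Zic5 on the minus strand at 122456795 to 122465677 and Zic2 on the plus strand at 122475435 to 122479852 (GRCm38), with starts 9758 bases apart. For Zic2, the WT-1 libraries held 50.6, 59.0 and 27.0 CPM and the WT-2 libraries 35.9, 64.2 and 39.1 CPM. Those of Mut-1 held 41.0, 66.3 and 87.5 CPM and those of Mut-2 held 42.0, 61.4 and 88.5 CPM. Mut-1 replicates 2 and 3 and Mut-2 replicate 3 were above all wild-type libraries, and the other 3 mutant libraries were within the wild-type range. The line means were 46.3 ± 0.624 and 63.0 ± 2.18 CPM (SD, n = 2), a log2 fold change of 0.46 (SE 0.11; edgeR adjusted p = 0.188).

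For Zic5, WT-1 had 37.0, 31.0 and 19.8 CPM and WT-2 had 23.1, 32.2 and 29.2 CPM. Mut-1 had 24.8, 36.5 and 28.9 CPM and Mut-2 had 28.8, 36.3 and 55.5 CPM. Only Mut-2 replicate 3 exceeded the highest wild-type library. The log2 fold change was 0.27 (SE 0.16; edgeR adjusted p = 0.515), from 28.9 ± 0.990 to 34.3 ± 6.37 CPM (SD, n = 2), and it was 0.04 when Mut-2 was left out.

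Sall2, a zinc finger factor of the spalt family, lies on chromosome 14 at 52311172 to 52328762. WT-1 libraries held 7.0, 7.08 and 6.25 CPM and WT-2 libraries 12.6, 8.51 and 7.21 CPM. Mut-1 libraries held 18.9, 10.01 and 11.6 CPM and Mut-2 libraries 14.4, 9.77 and 14.78 CPM. All 6 mutant libraries were above all 3 libraries of WT-1, whereas WT-2 replicate 1 reached into the mutant range. The log2 fold change was 0.71 (SE 0.20; edgeR adjusted p = 0.244), from 8.19 ± 1.86 to 13.2 ± 0.618 CPM (SD, n = 2).

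Pou3f1 (Oct6), a POU factor of the epiblast and of neural fate, showed no such order. Its gene lies on chromosome 4 at 124656807 to 124660655, opposite Gm2164, which had 0 to 1 counts per library. WT-1 had 5.65, 6.12 and 5.69 CPM, and WT-2 had 8.71, 5.83 and 6.48 CPM. Mut-1 had 6.57, 3.59 and 6.51 CPM, and Mut-2 had 8.36, 5.35 and 4.11 CPM. The log2 fold change was -0.13 (SE 0.20; edgeR adjusted p = 0.817), and 3 mutant libraries were below the lowest wild-type value. Sox3, a SoxB1 factor of the X chromosome that is close in sequence to Sox2, had 1.59, 2.32 and 2.40 CPM (WT-1) and 3.85, 2.74 and 2.84 CPM (WT-2). In the mutant lines it had 3.19, 2.83 and 3.72 CPM (Mut-1) and 2.26, 2.93 and 5.30 CPM (Mut-2). Its log2 fold change was 0.34 (SE 0.26; edgeR adjusted p = 0.625). The 3 WT-2 libraries stood above the 3 of WT-1 and within the range of the mutant libraries, and Mut-2 replicate 1 lay within the range of WT-1. The log2 fold change of Sox3 was 0.09 without line WT-1 and 0.15 without Mut-2 replicate 3, and without the feeder-rich libraries it was 0.69.

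Cdh2 encodes N-cadherin, an adhesion molecule that gains on E-cadherin in primed cells and that fibroblasts also make. The WT-1 libraries held 12.8, 15.2 and 19.3 CPM and the WT-2 libraries 11.2, 18.2 and 19.96 CPM. Mut-1 libraries held 25.9, 15.05 and 16.5 CPM and Mut-2 libraries 22.4, 27.4 and 22.0 CPM. The log2 fold change was 0.42 (SE 0.16; edgeR adjusted p = 0.327), from 16.3 ± 0.208 to 21.5 ± 3.04 CPM (SD, n = 2). The 3 feeder-rich libraries held the 3 highest values, 22.4 to 27.4 CPM, and the other 3 mutant libraries held 15.05 to 22.0 CPM (mean 17.9) beside a wild-type mean of 16.1. In limma-voom on the 12 libraries, with libraries of a line counted as independent, the log2 fold change of Cdh2 was 0.41 (SE 0.18, adjusted p = 0.241). With the feeder share in the model it was 0.17 (limma adjusted p = 0.846), and it was 0.16 (adjusted p = 0.867) without the feeder-rich libraries.

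Utf1 encodes a chromatin-bound factor that is restricted to pluripotent and germ cells and acts at bivalent promoters, and its gene lies on chromosome 7 at 139943789 to 139945112. It was the most abundant of the 9 genes and had the smallest p. WT-1 had 188, 193 and 165 CPM and WT-2 had 138, 165 and 231 CPM. Mut-1 had 86.3, 116 and 114 CPM and Mut-2 had 85.3, 132 and 180.2 CPM. Each mutant library other than Mut-2 replicate 3 was below the lowest wild-type library. The line means were 181 ± 5.57 and 116 ± 15.8 CPM (SD, n = 2), a log2 fold change of -0.62 (SE 0.13; edgeR adjusted p = 0.177). Utf1 passed the threshold with DESeq2 on the same line totals (-0.62, adjusted p = 0.00447), where 2.1% of 14023 genes were called higher and 0.456% lower. With edgeR it passed when Mut-2 was left out (-0.79, adjusted p = 0.0251), where 0.393% of genes were called higher and 0.0826% lower. Without the feeder-rich libraries the edgeR value was -0.28 (adjusted p = 0.879).

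**Figure D3:**
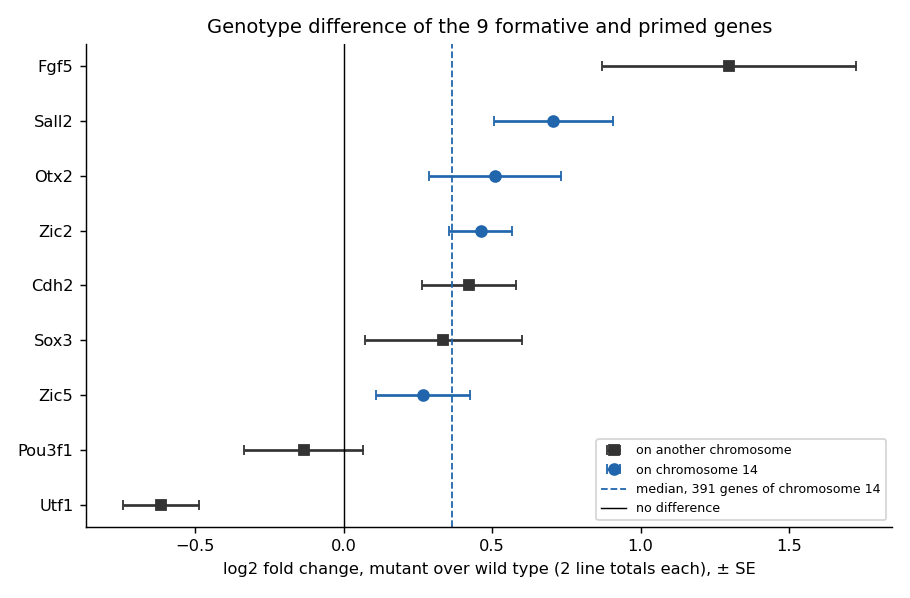
Log2 fold change, mutant over wild type, of the 9 genes in the edgeR comparison of 2 line totals per genotype (horizontal axis; bars are 1 standard error), with circles for genes of chromosome 14 and squares for the others. The dashed line is the median of 391 chromosome 14 genes, 0.36; Otx2, Zic2 and Zic5 lie near it, Sall2 above it, and Utf1 is the lowest of the 9.

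Set against their own chromosome, the 4 genes of chromosome 14 differed from its median by 0.34 (Sall2), 0.14 (Otx2), 0.10 (Zic2) and -0.10 (Zic5) on the log2 scale. Of the 391 chromosome 14 genes, 91.8% were below Sall2, 75.2% below Otx2, 68.3% below Zic2 and 28.4% below Zic5. The quartiles of those genes were 0.25 and 0.50, so Zic2 and Zic5 lay between them, Otx2 just beyond the upper quartile, and Sall2 above it. At an unadjusted p under 0.05, 2 of the 4 were higher, against 49.7% of the 592 chromosome 14 genes tested. All 4 overlapped between genotypes, while 21.5% of 428 chromosome 14 genes had all mutant libraries above all wild-type libraries. The 5 genes on other chromosomes had a median of 0.34, with 3 higher and 2 lower. Of these, Fgf5 and Cdh2 were higher and Utf1 lower at an unadjusted p under 0.05, against 7.95% and 4.06% of the genes outside chromosome 14. The cause of the chromosome-wide difference was not tested.

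Values of other genes also changed when the feeder-rich libraries were left out. Of the mutant lines, Mut-1 replicates 2 and 3 and Mut-2 replicate 3 then remain, so Mut-2 rests on 1 library. In both mutant lines replicate 1 is feeder-rich and replicate 3 is not, so feeder share and replicate number cannot be told apart there. Without the feeder-rich libraries the edgeR log2 fold change of Otx2 went from 0.51 to 0.15. That of Zic5 went from 0.27 to 0.61 and that of Pou3f1 from -0.13 to -0.46. None of these passed (edgeR adjusted p from 0.747 to 0.986). In the 3 mutant libraries of lower feeder share Zic2 had 66.3 to 88.5 CPM (mean 80.8), above all 6 wild-type libraries (mean 46.0). In the feeder-rich libraries it had a mean of 48.1 CPM. Zic2 was the only 1 of the 8 eligible genes whose values did not overlap in that subset, beside 4.25% of all genes above, 2.8% of all genes below, and 39.3% of chromosome 14 genes. Fgf5 was not eligible, as it averaged under 2 CPM. It had 0.837 to 0.897 CPM in that subset, above the highest wild-type library (0.714 CPM). The log2 fold change of Zic2 in limma-voom went from 0.47 (SE 0.24, adjusted p = 0.321) to 0.86 once the feeder share was a covariate (SE 0.24, adjusted p = 0.216). It was also 0.86 without the feeder-rich libraries (adjusted p = 0.264). For Utf1 the difference shrank instead. Like Zic2, Utf1 had a lower mean in the feeder-rich libraries (101 CPM) than in the other mutant libraries (137 CPM). The wild-type mean of Utf1 was 179.9 CPM. Its limma-voom value went from -0.64 (SE 0.17, adjusted p = 0.0819) to -0.40 with the covariate (adjusted p = 0.536). No gene among the 9 passed in these 3 fits, beside 1.09% of genes higher and 0.261% lower in the fit with neither change. In either direction, 0.197% of genes were called with the covariate and 0.0927% without the feeder-rich libraries. The fit with neither change counted libraries of a line as independent. Feeder share and genotype moved together over the lines, and their parts were not tested beyond these fits.

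**Figure D4:**
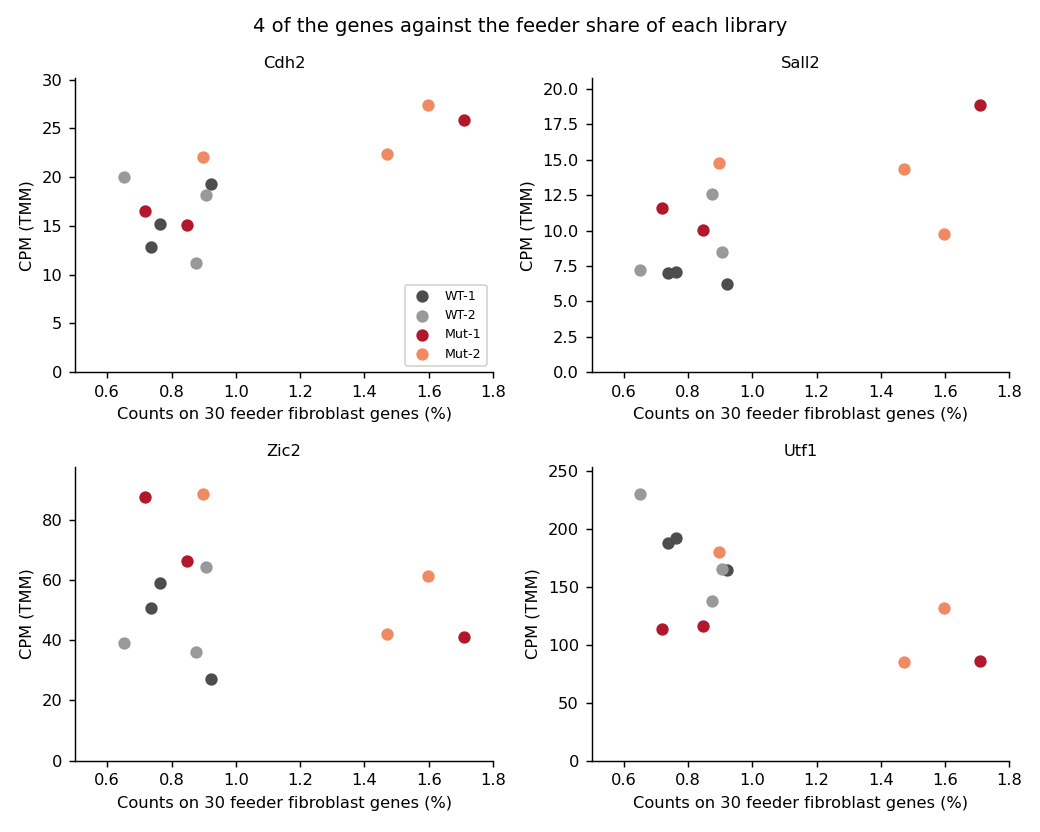
CPM of Cdh2, Sall2, Zic2 and Utf1 (vertical axes, linear, from 0) against the percent of counts on 30 feeder fibroblast genes (horizontal axes) in the 12 libraries, coloured by line. The 3 feeder-rich mutant libraries, at 1.47% to 1.71%, hold the highest Cdh2 values, 22.4 to 27.4 CPM, and the highest Zic2 values are in mutant libraries of lower share.

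Single pairs of lines were then contrasted in edgeR with the libraries as replicates, at an adjusted p under 0.05 and a log2 fold change of at least 1 in size. These p-values measure only the spread between libraries of a line, which may be technical. Between Mut-1 and WT-1, 0 of the 9 genes passed, beside 0.206% of 16533 genes. Sall2 was nearest by p, at 1.0 (SE 0.28, edgeR adjusted p = 0.219), followed by Utf1 at -0.78 (SE 0.24, adjusted p = 0.274) and Fgf5 at 1.83 (SE 0.65, adjusted p = 0.359). Between Mut-2 and WT-2, again 0 of 9 passed, beside 0.46% of genes (76 genes; 139 with the replicate number as a block, still 0 of the 9). Cdh2 there was at 0.54 (SE 0.25, edgeR adjusted p = 0.329), Zic5 at 0.51 (SE 0.26, adjusted p = 0.369), Utf1 at -0.43 (SE 0.24, adjusted p = 0.432) and Fgf5 at 0.93 (SE 0.58, adjusted p = 0.496). Sall2 was at 0.46 (SE 0.27, edgeR adjusted p = 0.467).

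The sign was the same in both pairs for each of the 9 genes, and the pairs share no library. The share of all genes with matching signs is not given here. Lines were paired by their numbers alone, and the line total of Pou3f1 was 6.01 CPM in Mut-2 beside 5.91 CPM in WT-1. Between Mut-1 and WT-1, Pou3f1 was at -0.06 and Zic5 at 0.04. The difference between the pairs was itself tested: 0 of 9 genes passed, beside 0.0726% of genes. It was largest for Fgf5, at 0.89 (SE 0.88, edgeR adjusted p = 0.785), and next for Sall2, at 0.54 (SE 0.39, adjusted p = 0.716). Between the wild-type lines 0 of 9 passed, beside 0.0181% of genes; Fgf5 was at 1.06 (SE 0.69, edgeR adjusted p = 0.756) and Sox3 at 0.58 (SE 0.33, adjusted p = 0.715), both higher in WT-2. Between the mutant lines 0 of 9 passed, beside 0.121% of genes; Otx2 was at -0.48 (SE 0.61, edgeR adjusted p = 0.910) and Zic5 at 0.42 (SE 0.26, adjusted p = 0.809), for Mut-2 over Mut-1.

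Other genes of the same path did not stand on one side. Of 24 further formative and primed genes, 9 were higher and 15 lower in the mutant lines, and their median log2 fold change was -0.14, beside 0.42 for the 9. None passed in the line totals, and 1 was higher and 5 lower at an unadjusted p under 0.05. Grhl2, an epithelial factor of the formative enhancers, was at 0.84 (SE 0.20, edgeR adjusted p = 0.214). Etv4, an ETS factor downstream of FGF, was at -0.69 (SE 0.18, edgeR adjusted p = 0.223). The de novo DNA methyltransferase Dnmt3b was at -0.39 (SE 0.13, edgeR adjusted p = 0.281), and Lin28a, an RNA-binding protein that blocks let-7, at -0.31 (SE 0.10, adjusted p = 0.267). In all of them the libraries of the genotypes overlapped. Fgf8, a ligand of later stages, was at 0.223 to 0.961 CPM over the 12 libraries.

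Of 20 core and naive genes, 10 were higher and 10 lower (median 0.03; edgeR, 0 passed). Klf5, also on chromosome 14, had 94.2 to 147 CPM in wild-type and 148 to 191 CPM in mutant libraries, without overlap (0.50, SE 0.10, edgeR adjusted p = 0.181). Jam2 had 181 to 345 CPM and 368 to 549 CPM, also without overlap (0.77, SE 0.19, edgeR adjusted p = 0.220). Dppa3, a gene of naive and germ cells, was at -0.63 (SE 0.21, edgeR adjusted p = 0.287). Of 14 genes of the FGF signal, 6 were higher and 8 lower (median -0.04; edgeR, 0 passed in the line totals). Spry2, a feedback inhibitor of FGF signalling on chromosome 14, had 64.0 to 112 CPM in wild-type and 160 to 254 CPM in mutant libraries. It rose in both pairs of lines, by a log2 fold change of 1.15 in Mut-1 (SE 0.20, edgeR adjusted p = 0.0254) and 1.32 in Mut-2 (SE 0.20, adjusted p = 0.0125). No other gene of the lists given here passed in these pairs.

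**Figure D5:**
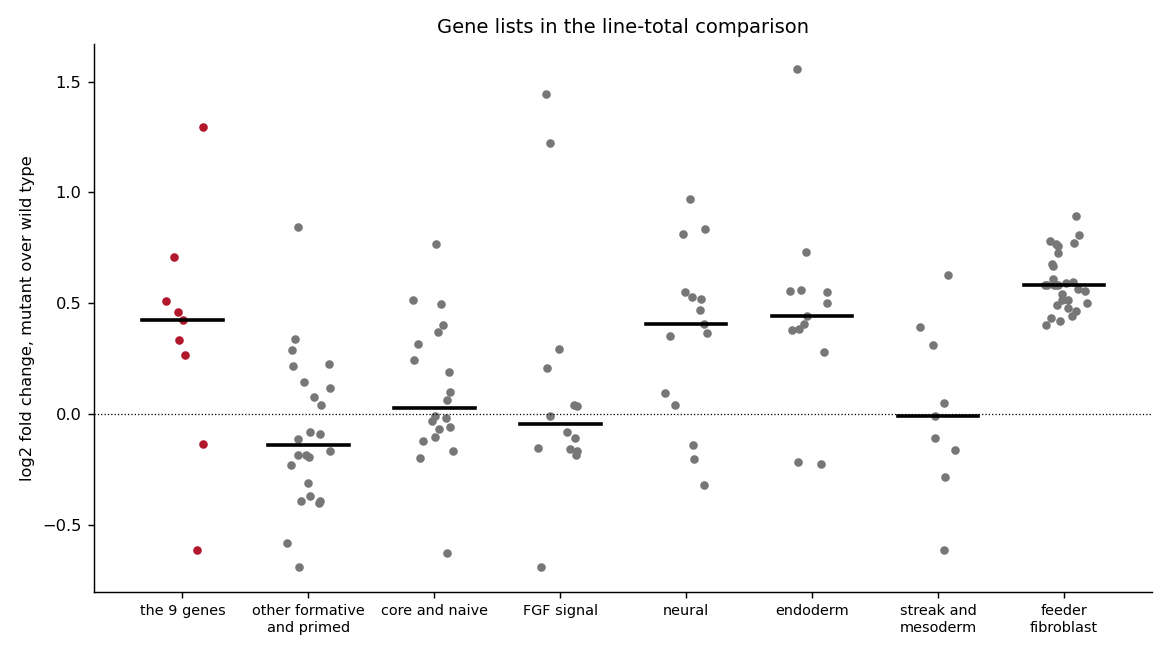
Log2 fold change, mutant over wild type, in the edgeR comparison of line totals (vertical axis) for each tested gene of 8 lists (points, spread sideways for legibility); black bars are list medians and the dotted line is the median of all genes. The 9 genes have a median of 0.42, the further formative and primed genes one of -0.14, and all 30 feeder genes lie above 0 with a median of 0.58.

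Markers of other cells moved beside these values. All 30 feeder fibroblast genes were higher in the mutant line totals (median 0.58; 28 at an unadjusted p under 0.05, 0 past the adjusted threshold in edgeR), and their sum ran from 6513 to 9215 CPM in wild-type and from 7489 to 16169 CPM in mutant libraries. The 19 neural markers in the table summed to 126 to 177 CPM and 169 to 235 CPM. Of the 15 tested, 12 were higher and 3 lower (median 0.41, close to the 0.42 of the 9 genes), with 6 higher and 0 lower at an unadjusted p under 0.05 and 0 past the adjusted threshold in edgeR. The neurofilament genes Nefl, at 0.81 (SE 0.18, edgeR adjusted p = 0.181), and Nefm, at 0.97 (SE 0.26, adjusted p = 0.228), are both on chromosome 14. Of the 19, 7 were under 1 CPM on average, and Hes5 and Neurog2 were at 0 in some libraries and never above 0.240 CPM. The 14 markers of primitive and visceral endoderm summed to 357 to 466 CPM and 384 to 658 CPM, with Foxa2 and Afp no higher than 0.496 CPM. Of the 13 tested, 11 were higher and 2 lower (median 0.44), with 5 higher and 0 lower at an unadjusted p under 0.05 and 0 past the adjusted threshold in edgeR. Gata4, an endoderm factor on chromosome 14, was at 0.73 (SE 0.20, edgeR adjusted p = 0.237) and Dab2 at 0.55 (SE 0.17, adjusted p = 0.261). Foxa2, at its low level, had the highest value of the list, 1.56 (SE 0.63, edgeR adjusted p = 0.355). The 11 markers of primitive streak and mesoderm summed to 16.8 to 27.0 CPM and 18.3 to 27.2 CPM, with 7 under 1 CPM on average. The part of these cells in the levels of the 9 genes was not tested beyond the feeder fits above.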

How the data were processed

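RNA-seq was read from 12 libraries of 4 mouse embryonic stem cell lines. The table the authors deposited gives raw read counts for each gene and library, as whole numbers. Per the submitters' processing notes, the tools were HISAT2 2.1.0, Bowtie2 2.2.3, bcl2fastq and HTSeq 0.6.0, with the build GRCm38. What each tool did, which annotation was used and whether counting used strand is not given in the sources used here. Positions come from GENCODE M21 on GRCm38: 27263 symbols matched by name, 751 after a change of punctuation and 133 by a RefSeq synonym, and 3494 had no single position.

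The 3 libraries of a line are technical replicates in the words of the design text, so they were summed. The 2 mutant totals were compared with the 2 wild-type totals (47284654 to 52074216 counts) in edgeR 4.0.16 (R 4.3.3): TMM, filterByExpr, quasi-likelihood test, Benjamini-Hochberg adjustment at 0.05. Pairs of lines were contrasts of 1 edgeR model over all 12 libraries, for which a log2 fold change of at least 1 in size was also required. A standard error is the size of the log2 fold change divided by the square root of the quasi-likelihood F. Alternatives were DESeq2 1.42.0, limma 3.58.1 (voom, line as a random block), other scaling and filters, left-out lines and libraries, and the feeder share as a covariate. A limma block correlation estimated below 0 was set to 0, because on simulated data the negative estimate gave too many false calls. This was the case for the limma-voom fit of all 12 libraries without covariate or replicate block, where the line block then had no effect. The edgeR fit of line totals, the contrast of Mut-1 against WT-1 and the limma-voom fit without covariate were then run on simulated data with known changes. The other fits were not. The simulated lines of a genotype did not differ, so these runs cannot check the spread between lines.

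The 9 genes and all gene lists were chosen with earlier results of these data known, so no list counts as independent evidence. Genes named are the 9, Tinf2, up to 4 genes of each other list by smallest p in the line totals, and for each of the 9 the 3 genes, of those averaging 5 CPM or more, with the highest Pearson r of log2(CPM + 0.5). Single markers and list genes named only for their level were chosen after their values were seen. Values per gene are CPM, mean ± SD over line totals. WT-1 replicates 1 and 2 were closer than other libraries of a line (chi-square per degree of freedom 1.62, against 10.9 to 38.4) but differed by more than sampling noise, and both were kept. Same-number libraries deviated together (each correlation over 0.1) between WT-1 and WT-2, WT-2 and Mut-1, WT-2 and Mut-2, and Mut-1 and Mut-2, but not between WT-1 and either mutant line; the labels give no reason for a pairing. Precision is set by counts of 1 to 3488 per gene and library.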

Additional observations from a re-analysis of the deposited data

Results flagged for a closer look

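The 6 libraries of each genotype were searched for a value far from the rest, by the gap to its nearest neighbour as a share of the whole range, with 0.625 as the limit. Chance marks about 1 in 20 such groups, and 3 of 20 were marked. Fgf5 in Mut-1 replicate 1 (0.362 CPM) lay below the other 5 mutant libraries with a ratio of 0.719. Pou3f1 in WT-2 replicate 1 (8.71 CPM) lay above the other 5 wild-type libraries with a ratio of 0.729. Sall2 in the same library (12.6 CPM) also lay above the others, with a ratio of 0.643.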

How the results depend on the processing

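Over 25 alternatives of the genotype comparison, 8 of the 9 genes kept their sign; Pou3f1 went from -0.13 to 0.00070 without line WT-2 (range -0.30 to 0.00070 over the left-out lines and libraries), and the cause was not tested. Utf1 was the only one of the 9 to pass, in 2 of the 25. The count of all genes called in the line totals, 0, was 1 with RLE scaling, 77 with no filter, 359 with DESeq2 (1 of the 9), 212 with limma-voom, 102 with limma-voom and the replicate block, 31 with the feeder share as covariate and 15 without the feeder-rich libraries in limma-voom, an alternative chosen after seeing the data. Leaving out a line or library gave 0 to 158 genes and 0 to 1 of the 9. With no filter, Mut-1 against WT-1 gave 183 genes, Mut-2 against WT-2 350, WT-2 against WT-1 101, Mut-2 against Mut-1 99 and the difference of pairs 302, and with DESeq2 81, 209, 40, 44 and 91, in place of 34, 76, 3, 20 and 12. The replicate block gave 139 for Mut-2 against WT-2, 6 for WT-2 against WT-1 and 22 for the difference, and changed no call of the 9. Without the feeder-rich libraries Mut-2 against WT-2 and Mut-2 against Mut-1 gave 1 gene each and the difference 0; Mut-2 then has 1 library, which is assumed to vary like those of the other lines. Leaving out 1 library gave 12 to 207 genes for Mut-1 against WT-1 (207 without WT-1 replicate 3, 12 without Mut-1 replicate 3), 8 to 97 for Mut-2 against WT-2 (8 without Mut-2 replicate 2), 0 to 35 between wild-type lines, 3 to 29 between mutant lines and 2 to 72 for the difference. In these pair fits 0 of the 9 passed under any alternative. Among genes that averaged 2 CPM or more, those without overlap between genotypes went from 310 to 929 without the feeder-rich libraries. Zic2 was then among them, and Fgf5 lies below that level and was not counted. The cause of these changes was not tested. Depth limits Fgf5 most, at 1 to 14 counts per library.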

Other observations

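Across the 12 libraries, the genes whose log2(CPM + 0.5) followed each of the 9 most closely were found by Pearson r among the 11409 other genes that averaged 5 CPM or more (11410 for Fgf5 and Sox3, which average less). The libraries share lines, genotype and feeder share, so these values describe the set and carry no p. Utf1 was most like Jade2 (0.95), Sms (0.94) and the DNA methyltransferase gene Dnmt3a (0.94). Cdh2 was most like Lrrk2 (0.96), Antxr1 (0.95) and Olfml3 (0.94). Sall2 was most like Kif13b (0.93) and Prkcd (0.91), both on chromosome 14, and Tmem159 (0.90). Zic2 was most like Notum (0.95), a secreted inhibitor of Wnt signals, Rbmxl2 (0.93) and Acin1 (0.89). Zic5 was most like Ccdc94 (0.95), Acin1 (0.94) and Ift74 (0.93), so that Acin1, which lies on chromosome 14, stood in the lists of both Zic genes. Otx2 was most like Mfge8 (0.93), Atp9a (0.90) and Krt19 (0.88). Fgf5 was most like B4galt6 (0.93), Gm6548 (0.92) and Mras (0.88). Pou3f1 was most like Clk3 (0.89), Zfp661 (0.88) and Nlrx1 (0.87). Sox3 had the lowest values, with Slc30a3 (0.86), Gm10132 (0.81) and Usp22 (0.80).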
